A study of Mus musculus with 70 samples.

Results

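The steroid and prolactin receptors described here are 6 genes: the estrogen receptors *Esr1* and *Esr2*, the progesterone receptor *Pgr*, the glucocorticoid receptor *Nr3c1*, the mineralocorticoid receptor *Nr3c2* and the prolactin receptor *Prlr*. They were taken by name from a gene-level expression table of 34677 genes, and all 6 had a row in it. The table holds 70 RNA-Seq libraries in 24 groups, made to map gene expression across mouse brain regions that mediate energy balance. Of these, 57 libraries came from 18 brain regions of adult mice at P56 (postnatal day 56), which the study's methods give as C57BL/6NTac males and the labels as C57BL/6. Another 9 came from 4 brain regions of C57BL/6NTac embryos at E14.5 (day of embryonic development), and 4 from 2 C57BL/6 mouse embryonic stem cell (mESC) lines. No mouse carried an engineered allele or received a treatment according to the labels.

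The adult hypothalamus was sampled as the arcuate nucleus (ARH, 3 libraries), dorsomedial nucleus (DMH, 4), lateral hypothalamic area (LHA, 3), paraventricular nucleus (PVH, 2) and ventromedial nucleus (VMH, 2). The cerebral cortex was sampled as the anterior cingulate area (ACA, 3), entorhinal area (ENT, 3) and frontal pole (FRP, 3), and the basal forebrain and midbrain as the nucleus accumbens (ACB, 3) and ventral tegmental area (VTA, 3). The hindbrain nuclei were the parabrachial nucleus (PB, 3), the nucleus of the solitary tract (NTS, 4) and the dorsal-vagal complex (DVC, 3). The cerebellum was sampled as the cerebellar nuclei (CBN, 3) and as cortex of the central lobule (CENT2, 4), culmen (CUL4-5, 4), flocculus (FL, 4) and uvula (UVU, 3). The embryonic groups were terminal and peduncular hypothalamus (THy/PHy, 3), midbrain (M, 2), hindbrain (H, 3) and forebrain (F, 1), and the stem cell groups B6-1 and B6-2 (2 libraries each) were 2 clones. Each adult library pooled tissue punched from frozen sections of several mice, apart from 1 ACB library made from 1 mouse, and embryonic libraries pooled embryos. The p-values of the fold changes below therefore measure the spread between such pools within a group, not the spread between regions. Libraries of different regions shared mice, which the model did not take into account.

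Steroid receptors are nuclear receptors: they bind a steroid hormone that has crossed the cell membrane and then act on DNA as transcription factors. *Esr1* and *Esr2* respond to estrogens, *Pgr* to progesterone, *Nr3c1* to glucocorticoids, and *Nr3c2* to aldosterone and, with high affinity, to glucocorticoids. *Prlr* is a cell surface receptor of the cytokine receptor family that signals through the kinase *Jak2* to STAT transcription factors. In the hypothalamus these receptors take part in the feedback of gonadal, adrenal and pituitary hormones on neuroendocrine cells and in the control of reproduction, stress responses and energy balance.

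Total estimated counts per library were 13409041 to 20647884 in adult tissue, 9074581 to 22229582 in embryonic tissue and 12985081 to 18501667 in mESCs. Levels below are TPM, a share of all transcripts that corrects for transcript length and library total. Region markers were mostly highest where the label placed them, for example *Agrp* with 131.7 TPM in the ARH against at most 2.439 in any other group. There were exceptions within the hypothalamus. *Gpr50*, which marks the DMH, had a mean of 9.37 TPM in the DMH, 62.09 in the ARH and 26.28 in the VMH. *Ppp1r17*, the other marker named for the DMH, was also higher in those nuclei, with 10.09 TPM in the DMH, 23.8 in the ARH and 28.36 in the VMH. *Nr5a1*, which marks the VMH, reached 18.25 TPM in the ARH beside 33.62 in the VMH, and *Hcrt*, which marks the LHA, had 799.3 TPM in the VMH and 310 in the DMH beside 1446 in the LHA. *Sim1*, which marks the PVH, had 3.96 TPM there and 4.172 in the DMH. Libraries of neighboring hypothalamic nuclei thus shared marker transcripts, and the part of neighboring tissue in this was not tested. In 7 adult libraries the choroid plexus transcript *Ttr* exceeded 1000 TPM (all 3 of the CBN, replicates 1 and 2 of the FL, and replicate 1 of the NTS and of the UVU). VTA replicate 1 had 39.6% of its TPM in mitochondrial transcripts, against 5.55% to 14.2% in the other adult libraries.

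Across the 18 adult regions the receptors fell into a widely varying and an evenly spread set. The highest regional mean of *Prlr* was 88.9 times its lowest, and that of *Esr1* 82.1 times its lowest. For *Esr2* the ratio was 16.1, at low levels throughout. *Pgr* differed 4.13-fold between its extremes, *Nr3c1* 3.0-fold and *Nr3c2* 2.64-fold. Of the summed regional means, the 5 hypothalamic nuclei held 65.9% for *Esr2*, 57% for *Prlr* and 54.4% for *Esr1*, but 35.5% for *Pgr*, 31.4% for *Nr3c1* and 21.3% for *Nr3c2*.

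**Figure D1:**
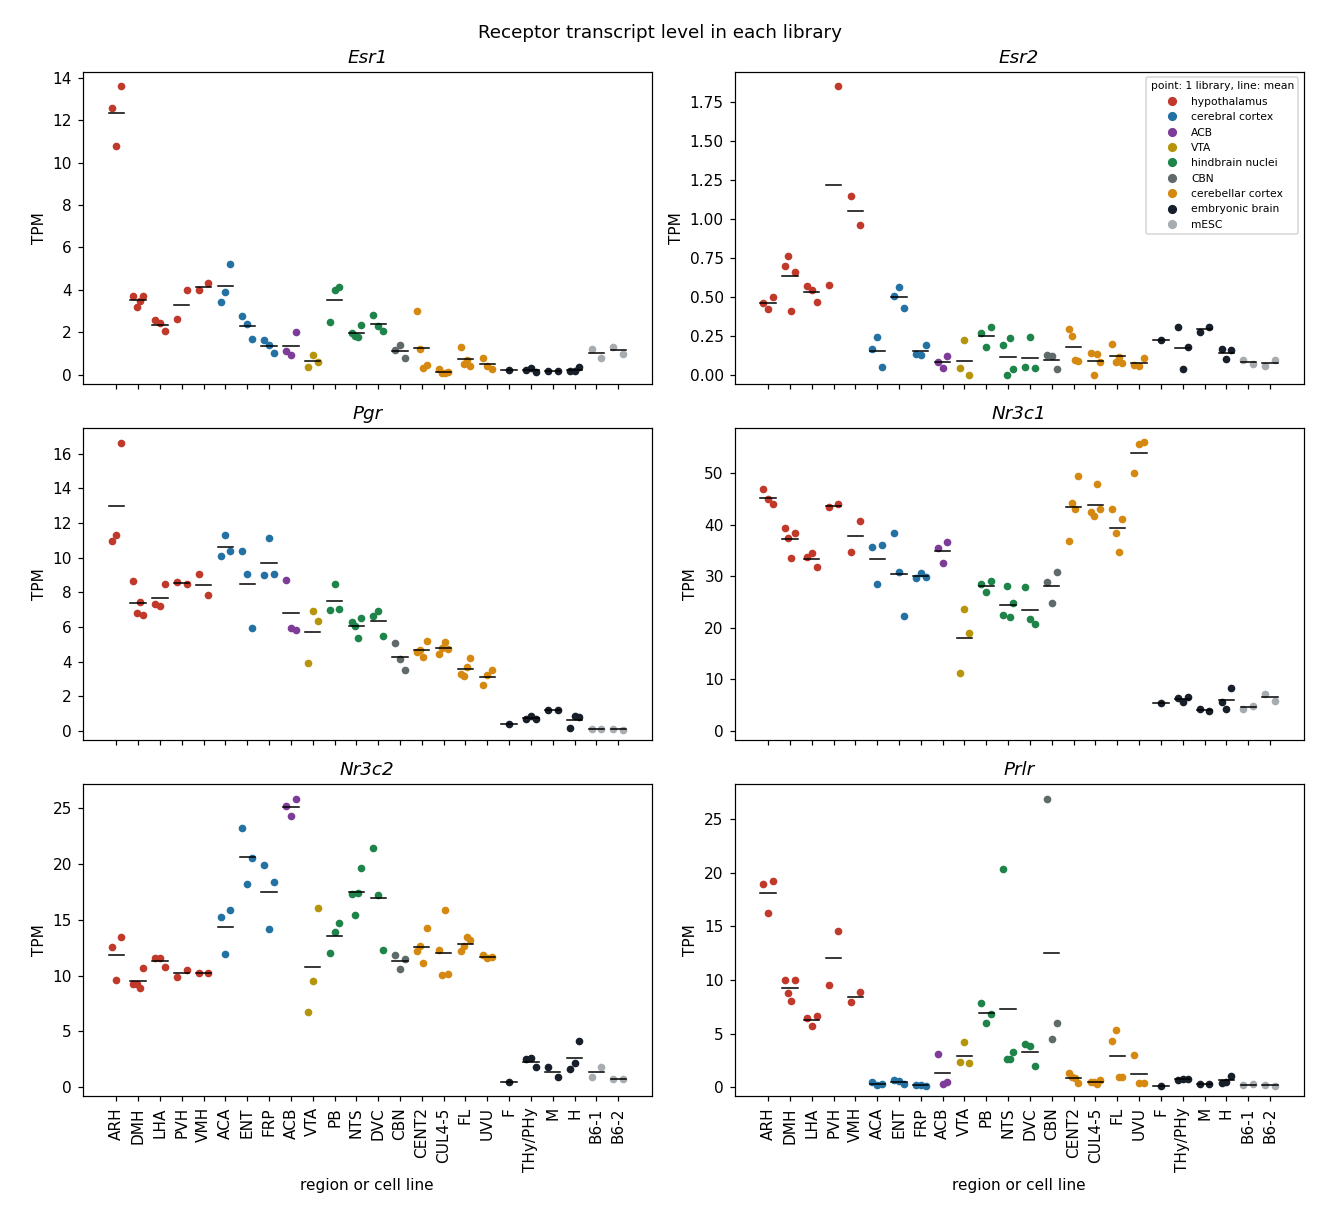
TPM of the 6 receptors (y axis, one linear scale per gene) in each of 70 libraries (points), by region or cell line (x axis), with a line at each group mean and colors for the part of the brain. *Esr1* peaks in the ARH, *Nr3c1* in the UVU and *Nr3c2* in the ACB, and *Pgr*, *Nr3c1* and *Nr3c2* are lower in every embryonic and mESC library than in any adult one.

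The comparisons used one model of all 19980 genes tested, and a gene was called where its adjusted p was below 0.05 and its level differed by more than 1 on the log2 scale. All 6 receptors were tested. In hypothalamus against the 13 other adult regions, 3 of 6 receptors were called, all 3 higher (*Esr1*, *Esr2* and *Prlr*), where 8.84% of all genes were called and 6.11% were called higher. In cerebral cortex against the other adult regions 1 of 6 was called (*Prlr*, lower), with 16.1% of all genes called. In cerebellar cortex 4 of 6 were called, all 4 lower (*Esr1*, *Esr2*, *Pgr* and *Prlr*), where 18% of genes were called and 9.75% were called lower. In the hindbrain nuclei 1 of 6 was called (*Prlr*, higher; 7.84% of all genes), and in the ACB 2 of 6 (*Nr3c2* higher and *Prlr* lower; 12.8% of all genes). The median log2 fold change over the receptors was 1.27 in hypothalamus and -1.29 in cerebellar cortex, where the medians over all genes were at or near 0.

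Among the hypothalamic nuclei only the ARH differed from the other 4 by this threshold, with 2 of 6 receptors called (*Esr1* and *Prlr*, both higher) against 6.9% of all genes. No receptor was called in the DMH (0.601% of all genes), the LHA (5.05%), the PVH (2.03%) or the VMH (1.47%). At an unadjusted p below 0.05, there were 2 receptors in the DMH, 2 in the LHA, 2 in the PVH and 0 in the VMH, and 2002, 5963, 3293 and 3164 of the 19980 genes in the same order. DESeq2, the other count tool, also called 0 in each of these 4 nuclei. The ENT differed from the ACA and FRP in 1 of 6 receptors (*Esr2*, higher; 3.66% of all genes). In the PB against the NTS and DVC no receptor was called (2.3% of all genes), 1 had an unadjusted p below 0.05 (as did 3723 of the 19980 genes), and DESeq2 called 0.

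**Figure D2:**
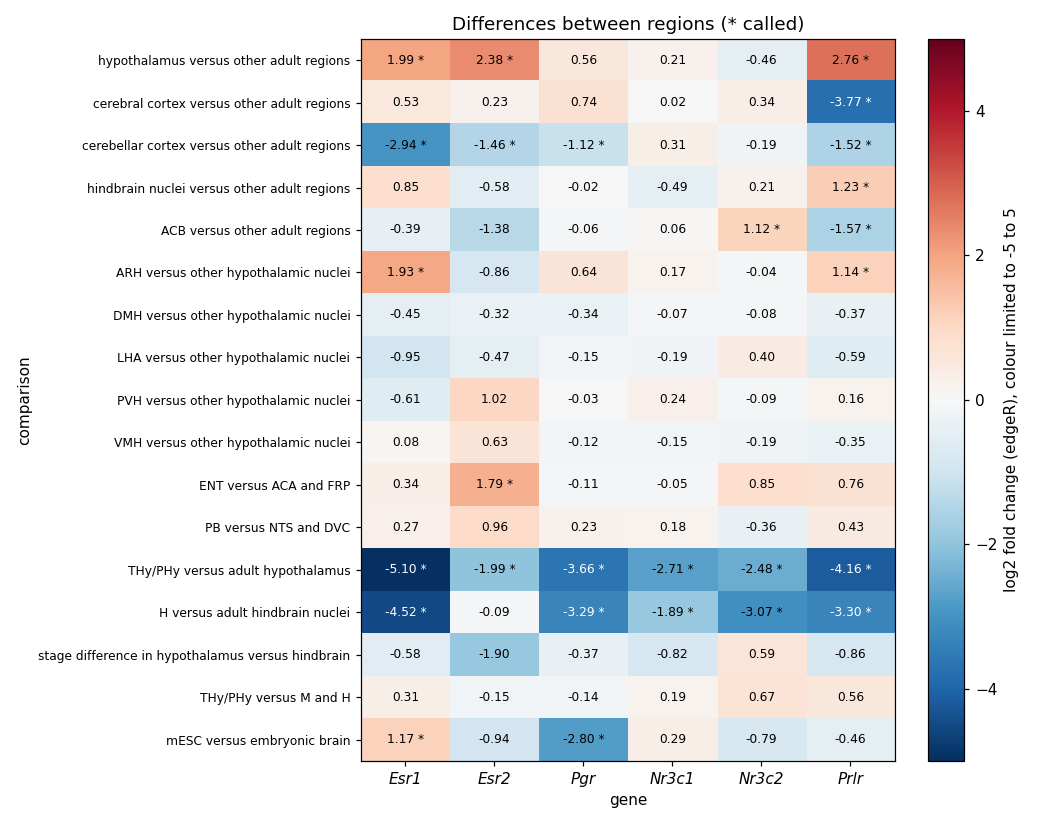
Log2 fold change of each receptor (columns) in 17 comparisons (rows) from edgeR, colored from blue (lower) to red (higher) with the color limited to -5 to 5. An asterisk marks an adjusted p below 0.05 with a log2 fold change beyond 1, and in the row of THy/PHy against adult hypothalamus all 6 receptors carry it.

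*Esr1*, which mediates most known effects of estrogen on the hypothalamus, was most abundant in the ARH. The gene lies at chr10:4611593-5005614 on the plus strand (GRCm38). RefSeq lists 2 promoter windows for it, and the 250 bases upstream of the second start are shown because they hold the only match among the motifs searched in either *Esr1* window. The motifs were GGTCA (or TGACC), the core of an estrogen response element, AGAACA (or TGTTCT), the core of a glucocorticoid response element, and TTCNNNGAA, the form of a STAT site, on both strands. Capitals mark the match to TTCNNNGAA at -188 from the start, in chr10:4709908-4710157 of GRCm38.p6 on the plus strand, a motif found in 7.02% of 32851 RefSeq windows of this length.
Esr1 second start: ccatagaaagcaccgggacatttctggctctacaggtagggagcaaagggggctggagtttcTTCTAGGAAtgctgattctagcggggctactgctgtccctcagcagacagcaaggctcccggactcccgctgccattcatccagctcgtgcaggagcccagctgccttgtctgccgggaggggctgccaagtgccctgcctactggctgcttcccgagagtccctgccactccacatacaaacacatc

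The 3 ARH libraries had 12.56, 10.8 and 13.6 TPM of *Esr1*. The VMH had 3.979 and 4.322 TPM, the DMH 3.701, 3.197, 3.498 and 3.735, the PVH 2.64 and 3.983, and the LHA 2.596, 2.452 and 2.06. Every ARH library lay above every other library of the series, and the libraries of the ARH and the other nuclei did not overlap. In the ARH the log2 fold change against the other 4 nuclei was 1.93 ± 0.212 (SE, adjusted p = 4.37e-10). For hypothalamus against the other adult regions it was 1.99 ± 0.109 (adjusted p = 6.89e-22), a geometric mean 3.97-fold higher. In bulk tissue, fewer cells that express a receptor and less of its RNA per cell cannot be told apart, here and below.

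Outside the hypothalamus *Esr1* was next highest in the ACA, with 3.427, 3.891 and 5.24 TPM, and in the PB, with 2.466, 3.996 and 4.124. The ACA and PB libraries thus overlapped with those of the VMH, DMH and PVH. In the order of the means of all 24 groups, the ARH exceeded the ACA by 8.13 TPM, the VMH the DMH by 0.618 and the NTS the FRP by 0.625, each beyond the larger SD of the pair, and no other neighbors with an SD did so. The LHA had the lowest mean of the nuclei, with a log2 fold change of -0.95 ± 0.251 against the other 4 (adjusted p = 0.00427), just short of the fold threshold. Without LHA replicate 1 it became -1.02 and was called.

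Cerebellar cortex held little *Esr1*, with a log2 fold change of -2.94 ± 0.148 (adjusted p = 3.83e-24, 7.67-fold lower). Over all alternatives but leave-one-out this value ran from -3.09 to -1.57 and was called in each. The 4 CUL4-5 libraries had 0.2737, 0.1043, 0.09732 and 0.1244 TPM, from 3 to 9 estimated counts each. The CENT2 libraries were uneven, with 2.992, 1.22, 0.3299 and 0.4547 TPM, so the first of them reached the level of several forebrain regions. The VTA had 0.3895, 0.934 and 0.6254 TPM.

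*Esr2*, the second estrogen receptor, was measured at the edge of detection. The gene lies at chr12:76120419-76177259 on the minus strand (GRCm38). The 250 bases upstream of its RefSeq start (chr12:76177260-76177509, minus strand, GRCm38.p6) are shown because they hold 2 matches to GGTCA, at -238 and -75, in capitals. GGTCA or TGACC was found in 35.2% of the 32851 windows.
Esr2: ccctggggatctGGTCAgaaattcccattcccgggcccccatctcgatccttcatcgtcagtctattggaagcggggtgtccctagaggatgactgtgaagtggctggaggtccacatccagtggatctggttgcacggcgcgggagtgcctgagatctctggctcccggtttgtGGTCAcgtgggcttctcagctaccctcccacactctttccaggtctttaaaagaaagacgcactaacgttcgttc

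The PVH libraries had 0.5781 and 1.849 TPM of *Esr2*, and the VMH libraries 1.145 and 0.9585. The DMH libraries had 0.698, 0.7587, 0.412 and 0.656 TPM, the LHA 0.5702, 0.5449 and 0.469, and the ARH 0.4625, 0.4241 and 0.4971. The 14 hypothalamic libraries rested on 9 to 50 estimated counts each, and the 43 other adult libraries on 0 to 14. Of the 14 hypothalamic libraries, 8 lay above every other adult library, and the rest overlapped with the ENT alone. The log2 fold change for hypothalamus was 2.38 ± 0.238 (adjusted p = 1.88e-12, 5.21-fold higher), and with limma on log2(TPM + 0.5) it was 0.926, short of the fold threshold. The ARH, highest for *Esr1*, *Pgr* and *Prlr*, had the lowest *Esr2* mean of the 5 nuclei, with a log2 fold change of -0.86 ± 0.521 (adjusted p = 0.258).

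Between the PVH libraries a marker of PVH neurons differed as well as *Esr2*. The mean of *Oxt*, the oxytocin precursor made by magnocellular PVH neurons, was 1264 ± 1150 TPM (SD, n = 2) there. The library with more *Oxt* was the one with more *Esr2*, and the part of cell content in the difference was not tested. In the ENT, 0.5023, 0.5637 and 0.4261 TPM of *Esr2* stood above all 6 libraries of the ACA and FRP (0.04732 to 0.2451 TPM), with a log2 fold change of 1.79 ± 0.564 (adjusted p = 0.0274). That call rested on 12 to 14 estimated counts per ENT library and was lost without ACA replicate 3 (1.57), ENT replicate 1 (1.79), 2 (1.74) or 3 (1.82), or FRP replicate 1 (1.72). In cerebellar cortex *Esr2* had 0.0 to 0.2949 TPM and a log2 fold change of -1.46 ± 0.308 (adjusted p = 4.13e-05), and limma on log2(TPM + 0.5), where low values count for less, gave -0.425 and no call. In the hindbrain nuclei *Esr2* had a log2 fold change of -0.58 ± 0.335 (adjusted p = 0.154), and without DVC replicate 2 it was -1.06 and called.

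*Pgr*, whose transcription is classically induced by estrogen, had a flatter distribution. The gene lies at chr9:8899833-8968611 on the plus strand (GRCm38), and the 250 bases before its RefSeq start (chr9:8899583-8899832, GRCm38.p6) are shown for comparison with *Esr1* and *Prlr*, the other receptors with their highest mean in the ARH. None of the 3 motifs was in this window, which says only that these letters are not in it.
Pgr: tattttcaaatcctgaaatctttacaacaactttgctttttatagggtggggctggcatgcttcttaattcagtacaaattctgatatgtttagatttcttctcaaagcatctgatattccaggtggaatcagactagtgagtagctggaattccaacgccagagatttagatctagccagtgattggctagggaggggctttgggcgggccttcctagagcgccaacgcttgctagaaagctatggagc

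The ARH libraries had 10.95, 11.33 and 16.64 TPM of *Pgr*, the ACA libraries 10.1, 11.33 and 10.38, and the FRP libraries 8.98, 11.12 and 9.036. These 3 regions overlapped. The remaining 11 hypothalamic libraries had 6.719 to 9.049 TPM, below every ARH library. The ARH had a log2 fold change of 0.64 ± 0.152 against the other nuclei (adjusted p = 0.00104), cerebral cortex one of 0.74 ± 0.0839 against the other adult regions (adjusted p = 4.45e-11), and hypothalamus one of 0.56 ± 0.0746 (adjusted p = 6.39e-09), and none passed the fold threshold.

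The 15 cerebellar cortex libraries had 2.676 to 5.215 TPM of *Pgr*, and 38 of the 42 other adult libraries lay above all of them. The log2 fold change there was -1.12 ± 0.0802 (adjusted p = 5.48e-18, 2.17-fold lower), and with limma on log2(TPM + 0.5) it was -0.852, short of the fold threshold. Among the 18 adult regions no neighbors in the order of means differed beyond the larger SD of the pair.

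*Nr3c1*, the glucocorticoid receptor, was the most abundant of the 6 in every group. The gene lies at chr18:39410545-39519421 on the minus strand (GRCm38). The UVU libraries had the highest levels, 50.04, 55.75 and 56.14 TPM. The ARH had the next highest mean, with 46.85, 44.95 and 44.07 TPM, followed by the CUL4-5 (42.49, 41.78, 47.83 and 43.0) and the PVH (43.45 and 44.03), whose means lay within the larger SD of each neighboring pair. The UVU mean exceeded that of the ARH by 8.69 TPM, beyond the larger SD, and the libraries did not overlap. The VTA was lowest among adult regions, with 11.26, 23.62 and 19.02 TPM, the first of these in the library with the high mitochondrial share.

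In the comparisons of a part of the adult brain with the rest, *Nr3c1* differed by less than 2-fold. The log2 fold change was 0.31 ± 0.0479 in cerebellar cortex (adjusted p = 1.13e-07), 0.21 ± 0.0501 in hypothalamus (adjusted p = 0.00028) and -0.49 ± 0.0587 in the hindbrain nuclei (adjusted p = 5.38e-10). For the hypothalamus the adjusted p lay between 0.000116 and 0.182 under the alternatives that kept every hypothalamic library. The 10 hindbrain libraries had 20.82 to 29.02 TPM, and 40 of the 47 other adult libraries lay above all of them. In cerebral cortex the log2 fold change was 0.02 ± 0.0584 (adjusted p = 0.912).

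*Nr3c2*, the mineralocorticoid receptor, was highest in the ACB. The gene lies at chr8:76899442-77245012 on the plus strand (GRCm38). The ACB libraries had 25.21, 24.27 and 25.84 TPM, above all 54 other adult libraries. The ENT libraries followed with 23.17, 18.16 and 20.56 TPM, and the ACB exceeded the ENT and the ENT the FRP beyond the larger SD. For the ACB the log2 fold change was 1.12 ± 0.0803 (adjusted p = 3.57e-17, 2.17-fold higher), and with limma on log2(TPM + 0.5) it was 0.944, short of the fold threshold. The ENT had a log2 fold change of 0.85 ± 0.105 against the ACA and FRP (adjusted p = 1.99e-08), below the fold threshold.

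The hypothalamus stood toward the other end for *Nr3c2*. Its 14 libraries had 8.893 to 13.41 TPM, and 22 of the 43 other adult libraries lay above all of them. The UVU (11.7 TPM), CBN (11.34) and VTA (10.78) had means within the range of the nuclei, 9.502 in the DMH to 11.85 in the ARH. For the hypothalamus the log2 fold change was -0.46 ± 0.0502 (adjusted p = 2.73e-11). Within the hypothalamus the LHA had a log2 fold change of 0.40 ± 0.099 (adjusted p = 0.00229), and in the hindbrain the PB one of -0.36 ± 0.108 against the NTS and DVC (adjusted p = 0.0255), both below the fold threshold. With limma on log2(TPM + 0.5) the *Nr3c2* values were 0.118 in the LHA, 0.377 in the ENT and -0.319 in the PB, and over all alternatives but leave-one-out their adjusted p reached 0.792, 0.356 and 0.54. In the RefSeq window of *Nr3c2*, TGACC occurred at -135 and -49.

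Since both receptors bind corticosterone, their levels were also compared within each library. The log2 ratio of *Nr3c2* to *Nr3c1* was -1.89 ± 0.202 (SD, n = 5 regions) in hypothalamus and -1.13 ± 0.597 (n = 13) in the other adult regions, a difference of -0.766 (exact two-sided permutation test over regions, p = 0.0162). The regions share mice, so this p describes these regions. In linear terms there were 0.233 *Nr3c2* transcripts per *Nr3c1* transcript in the PVH and 0.255 in the DMH, against 0.719 in the ACB, 0.715 in the NTS and 0.711 in the DVC. The hypothalamus was not alone at the low end, since the UVU had the lowest log2 ratio of any adult region, -2.2. Leaving out the 5 cerebellar regions, most of which lay as low as the hypothalamus, widened the difference to -1.16, which follows in part from removing low values. For *Esr1* relative to *Esr2* the hypothalamus differed from the other regions by 0.477 on the log2 scale (exact permutation test, p = 0.285), and the sign of that difference changed with the pseudocount.

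**Figure D3:**
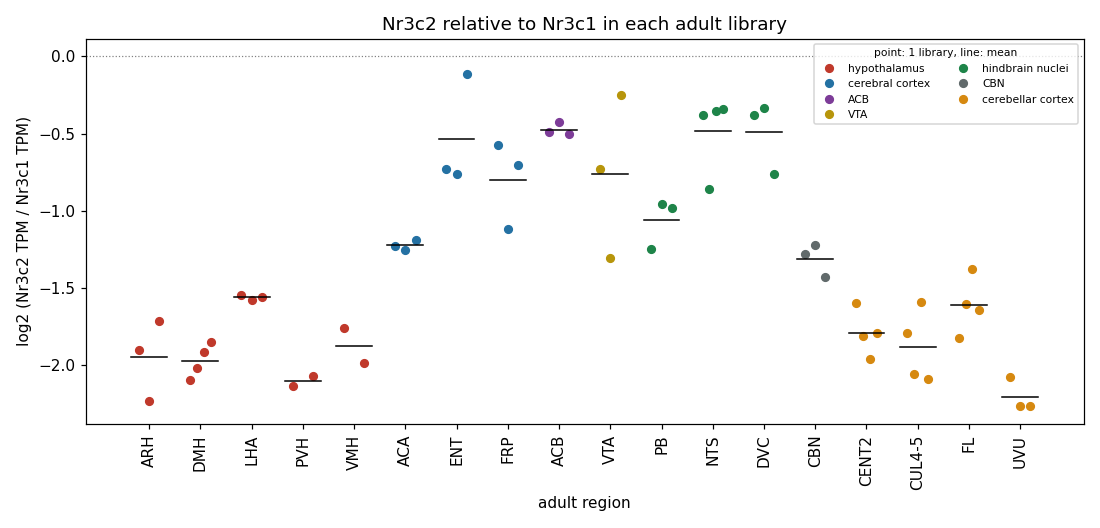
Log2 ratio of *Nr3c2* to *Nr3c1* TPM (y axis) in each of 57 adult libraries (points) by region (x axis), with a line at each regional mean. Every library lies below 0, meaning more *Nr3c1* than *Nr3c2*, and hypothalamic and cerebellar cortex libraries lie toward the low end.

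*Prlr* lies at chr15:10177238-10349180 on the plus strand (GRCm38) and is transcribed into forms that share the extracellular and membrane parts and differ in the cytoplasmic end. The long form can signal through STAT5, and short forms lack most of the cytoplasmic part. The last shared bases and the first bases of each form's own coding exon are shown because they are where the forms part. In the GENCODE vM21 annotation on GRCm38, the shared exon ends at chr15:10326545. Small letters mark the last 30 shared bases and capitals the first 30 bases particular to each transcript.
Prlr-202 (long form, 608 codons, own part at chr15:10328281-10328310): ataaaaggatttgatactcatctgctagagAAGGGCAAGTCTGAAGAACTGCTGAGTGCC
Prlr-205 (310 codons, chr15:10346410-10346439): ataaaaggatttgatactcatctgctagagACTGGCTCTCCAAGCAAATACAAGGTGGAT
Prlr-212 (303 codons, chr15:10345658-10345687): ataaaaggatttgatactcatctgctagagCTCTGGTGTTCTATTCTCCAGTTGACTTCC
Prlr-209 (292 codons, annotated as subject to nonsense-mediated decay, chr15:10341774-10341803): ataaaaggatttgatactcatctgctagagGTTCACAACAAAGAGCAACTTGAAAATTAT

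In adult hypothalamus most of the *Prlr* signal was assigned to the long form. In the ARH Prlr-202 held 80.2% ± 9.33 (SD, n = 3) of *Prlr* TPM and in the 14 hypothalamic libraries 73.3% ± 10.4. The short form Prlr-205 held 0.634% ± 1.08 in the hypothalamus, and Prlr-212 was listed at 0 there. The retained-intron transcript Prlr-201 held 12.2% ± 3.48 and Prlr-203, a 564-base transcript, 11.4% ± 10.8. At the low embryonic levels Prlr-202 held 49.2% ± 18 in THy/PHy and 46.5% ± 7.65 in H (n = 3 each). Single short reads carry little information on isoforms, so these shares are descriptions. The same holds for *Esr1*, with 87.1% ± 15.4 of its hypothalamic TPM on Esr1-204, *Pgr*, with 91.0% ± 3.41 on Pgr-204, and *Nr3c1*, with 67.3% ± 8.99 on Nr3c1-204 and 19.4% ± 9.22 on Nr3c1-203.

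RefSeq lists 3 promoter windows for *Prlr*. The second (250 bases, chr15:10223656-10223905, plus strand, GRCm38.p6) is shown as the one that held matches, to TTCNNNGAA at -110 and to TGTTCT at -12, in capitals. AGAACA or TGTTCT was found in 16.1% of the 32851 windows.
Prlr second start: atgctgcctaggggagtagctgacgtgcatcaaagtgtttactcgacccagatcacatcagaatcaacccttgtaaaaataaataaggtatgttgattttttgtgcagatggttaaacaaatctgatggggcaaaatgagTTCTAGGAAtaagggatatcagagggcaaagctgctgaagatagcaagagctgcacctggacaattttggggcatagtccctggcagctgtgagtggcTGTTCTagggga

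The ARH libraries had 18.9, 16.25 and 19.19 TPM of *Prlr*. The PVH had 9.505 and 14.57 TPM, the DMH 9.965, 8.773, 8.065 and 10.02, the VMH 7.977 and 8.832, and the LHA 6.409, 5.677 and 6.627. The ARH libraries lay above all other hypothalamic ones, and the LHA libraries below them all. For hypothalamus against the other adult regions the log2 fold change was 2.76 ± 0.205 (adjusted p = 7.41e-17, 6.78-fold higher). Over all alternatives but leave-one-out this value ran from 1.83 to 3.37 and was called in each. For the ARH against the other nuclei the log2 fold change was 1.14 ± 0.409 (adjusted p = 0.0342). That call was lost on leaving out ARH replicate 1 (1.2), 2 (1.14) or 3 (1.09), PVH replicate 1 (1.13) or VMH replicate 1 (1.14), while the fold changed little, and DESeq2 gave 1.13 without a call.

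Choroid plexus, the secretory epithelium of the ventricles, is a known site of *Prlr* expression, and its markers were high in several libraries with much *Prlr*. Their part in the *Prlr* levels was not tested. The NTS libraries had 20.34, 2.674, 2.669 and 3.334 TPM of *Prlr*, the CBN libraries 26.87, 4.502 and 6.013, the FL libraries 4.323, 5.372, 0.9466 and 0.9547, and the UVU libraries 3.025, 0.4331 and 0.367. The first library of the NTS, of the CBN and of the UVU and the first 2 of the FL were thus the high ones, and all of these were among the 7 with more than 1000 TPM of *Ttr*. The 7 had 3.025 to 26.87 TPM of *Prlr* with 1734 to 12240 TPM of *Ttr*. The summed level of the 8 choroid plexus markers was 3570 to 12870 TPM in the CBN and 8.087 to 10800 in the NTS, with a mean of at least 1 TPM for 8 of 8 genes in both. In the 14 hypothalamic libraries *Ttr* had 0.1023 to 3.846 TPM, and the summed markers ranged from 10.94 to 11.64 TPM in the LHA up to 36.67 to 47.34 in the ARH.

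**Figure D4:**
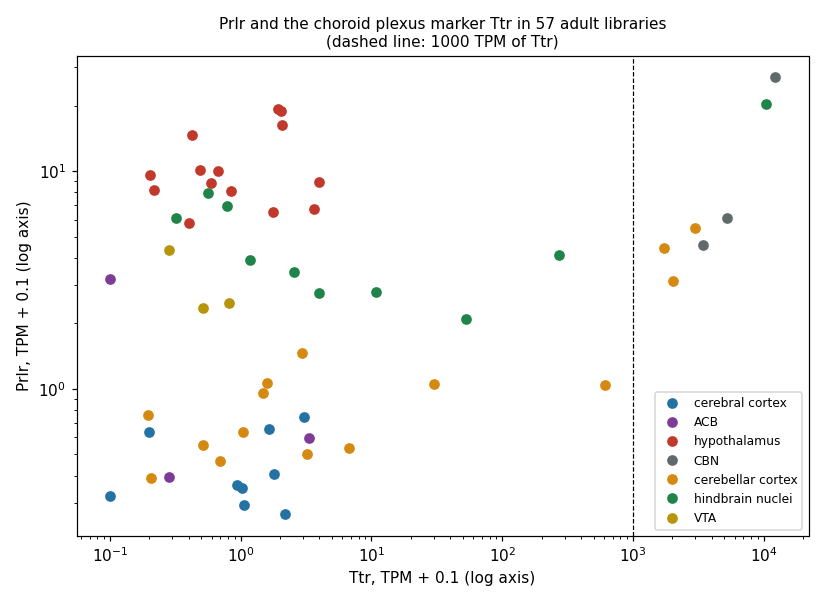
TPM of *Prlr* (y axis) against TPM of the choroid plexus marker *Ttr* (x axis), both plus 0.1 on log axes, in 57 adult libraries colored by part of the brain. The 14 hypothalamic libraries lie high in *Prlr* with *Ttr* at most 3.846 TPM, and the 7 libraries right of the dashed line at 1000 TPM of *Ttr* include the highest *Prlr* values.

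Without the 7 choroid-rich libraries, a comparison added after the data were seen, the log2 fold change of *Prlr* was 3.37 ± 0.126 in hypothalamus, 1.14 ± 0.236 in the ARH and 1.31 ± 0.144 in the hindbrain nuclei, all called. That fit held no CBN library and lacked the highest *Prlr* values outside the hypothalamus. The larger hypothalamic value follows in part from removing these high values. In the main comparison the hindbrain value was 1.23 ± 0.234 (adjusted p = 1.25e-05), and without NTS replicate 1 alone it was 0.897 and below the fold threshold. With each side pooled as a single group the hindbrain value was 0.205. The PB libraries, with 7.817, 5.979 and 6.854 TPM of *Prlr*, had 4.717 to 8.725 TPM of summed choroid markers. ACB replicate 1, with 3.084 TPM of *Prlr*, had 0.0 TPM of *Ttr*, and FL replicate 3, with 0.9466 TPM of *Prlr*, had 607.7.

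*Prlr* was low in the cerebral cortex, where the 9 libraries had 0.1662 to 0.6398 TPM, and 40 of the 48 other adult libraries lay above all of them. The log2 fold change was -3.77 ± 0.377 (adjusted p = 1.09e-12, 13.6-fold lower). Over all alternatives but leave-one-out this value ran from -4.25 to -2.4 and was called in each. In cerebellar cortex the log2 fold change was -1.52 ± 0.254 (adjusted p = 5.8e-07), and -2.14 without the choroid-rich libraries. The ACB libraries had 3.084, 0.2925 and 0.4974 TPM, of which the first stood apart, with a log2 fold change of -1.57 ± 0.512 (adjusted p = 0.0106). This call was lost without ACB replicate 2 (-1.15) or replicate 3 (-1.31), and with each side pooled (-2.45), and without ACB replicate 1, the library that stood apart, the value was -2.61.

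Pituitary markers moved with the ARH, the region of highest *Esr1*, *Pgr* and *Prlr*. The summed level of 8 pituitary markers was 80.78 to 127.9 TPM in the 3 ARH libraries, with a mean of at least 1 TPM for 7 of 8, and at most 18.72 in the other hypothalamic libraries. *Cga*, the common subunit of pituitary glycoprotein hormones, had 67.34 to 93.67 TPM in the ARH and 0.0 in both PVH and VMH. Markers of ependyma and tanycytes summed to 118.9 to 167.6 TPM in the ARH, 97.04 to 192.9 in the VMH and 59.87 to 166.4 in the DMH. The part of these cells in the receptor levels was not tested.

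At E14.5 all receptors but *Esr2* were lower than in the matching adult tissue of both parts of the brain compared. In THy/PHy against the adult hypothalamus 6 of 6 receptors were called, all 6 lower, where 38.2% of genes were called and 20% were called lower. In embryonic hindbrain against the adult hindbrain nuclei 5 of 6 were called, all 5 lower, where 44.0% of genes were called and 21.1% were called lower. The median log2 fold change over the receptors was -3.19 and -3.18, where the medians over all genes were near 0. Batches were listed by region, with adult and embryonic libraries apart, and the embryos' sex is not given, so stage, batch and sex cannot be told apart.

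By edgeR the largest embryonic difference was that of *Esr1*. The THy/PHy libraries had 0.2172, 0.3076 and 0.1165 TPM, from 6 to 8 estimated counts, against 2.06 to 13.6 TPM in the adult hypothalamus. The log2 fold change was -5.10 ± 0.365 (adjusted p = 6.48e-18, 34.2-fold lower), and in hindbrain -4.52 ± 0.38 (adjusted p = 2.14e-15). Its size depended on the scale: with limma on log2(TPM + 0.5) the *Esr1* differences were -2.76 in hypothalamus and -2.06 in hindbrain. In that fit *Pgr* (-2.89 and -2.72) and *Prlr* (-3.1 and -2.23) differed more than *Esr1* in both, and *Nr3c2* (-2.44) did in hindbrain. *Prlr* followed with 0.7006, 0.7513 and 0.7362 TPM in THy/PHy and a log2 fold change of -4.16 ± 0.611 (adjusted p = 3.83e-08), and in hindbrain -3.30 ± 0.615. None of these embryonic libraries overlapped with the adult ones of the same part of the brain.

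*Pgr* in THy/PHy had 0.7056, 0.8567 and 0.6945 TPM and a log2 fold change of -3.66 ± 0.216 (adjusted p = 3.4e-21), and in hindbrain -3.29 ± 0.22. *Nr3c1* was the most abundant receptor before birth too, with 6.316, 5.726 and 6.625 TPM in THy/PHy and 5.671, 4.252 and 8.393 in hindbrain. Its log2 fold change was -2.71 ± 0.128 (6.54-fold lower) in hypothalamus and -1.89 ± 0.124 (3.70-fold lower) in hindbrain. *Nr3c2* had a log2 fold change of -2.48 ± 0.125 in hypothalamus and -3.07 ± 0.133 in hindbrain, with 2.524, 2.58 and 1.818 TPM in THy/PHy. *Esr2* had a log2 fold change of -1.99 ± 0.583 (adjusted p = 0.00232) in THy/PHy, -0.879 and uncalled with limma on log2(TPM + 0.5), and -0.09 ± 0.639 (adjusted p = 0.935) in hindbrain, from 1 to 8 estimated counts per embryonic library.

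Whether the stage difference itself differed between hypothalamus and hindbrain was tested as an interaction. No receptor was called (9.84% of all genes were), with 3 at an unadjusted p below 0.05, as were 8076 of the 19980 genes. *Nr3c1* had an interaction of -0.82 ± 0.157 (adjusted p = 7.22e-05), a larger embryonic deficit in hypothalamus, and *Nr3c2* one of 0.59 ± 0.168 (adjusted p = 0.00565), a larger deficit in hindbrain, both below the fold threshold. The *Nr3c2* interaction rested on 1 library, since without THy/PHy replicate 2 it was 0.223 (adjusted p = 0.289), and its adjusted p reached 0.253 under the other alternatives. *Esr2* had -1.90 ± 0.86 (adjusted p = 0.0869) and was called by DESeq2, which called 1 receptor here. The *Nr3c1* value became -1.0 and was called without H replicate 2, *Esr2* was called at -2.39 without DVC replicate 2, and *Prlr* at -1.19 without the adult choroid-rich libraries. The embryonic hindbrain libraries kept in that fit had 566.0, 1025 and 1880.0 TPM of *Ttr*, beside 0.3887, 0.4816 and 1.098 TPM of *Prlr*, and the part of choroid plexus in this was not tested. Within the embryo, THy/PHy against M and H had no receptor called (3.18% of all genes), 1 was at an unadjusted p below 0.05, as were 3988 of the 19980 genes, and DESeq2 called 0. There *Nr3c2* had a log2 fold change of 0.67 ± 0.142 (adjusted p = 0.000853), which was 0.298 (adjusted p = 0.269) without THy/PHy replicate 2 and as low as 0.267, with adjusted p up to 0.926, under the other alternatives.

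In mESCs against embryonic brain 2 of 6 receptors were called, with 58.0% of all genes called. *Pgr* was lower, with 0.1426 and 0.1255 TPM in B6-1 and 0.1358 and 0.04527 in B6-2 and a log2 fold change of -2.80 ± 0.289 (adjusted p = 1.31e-12). It rested on 2 to 9 estimated counts per mESC library, and with limma on log2(TPM + 0.5) it was -1.11. *Esr1* was higher, with 1.237 and 0.8138 TPM in B6-1 and 1.31 and 0.9984 in B6-2 and a log2 fold change of 1.17 ± 0.341 (adjusted p = 0.00177). This *Esr1* call rested on 8 to 18 estimated counts per mESC library and was lost without B6-1 replicate 1 (0.828). The mESC libraries had 0.8138 to 1.31 TPM and the 8 embryonic libraries compared 0.1165 to 0.3832, and with limma on log2(TPM + 0.1) the difference was larger, at 1.94. *Nr3c2* had a log2 fold change of -0.79 ± 0.135 (adjusted p = 7.49e-07) and *Nr3c1* one of 0.29 ± 0.106 (adjusted p = 0.0104), both below the fold threshold.

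Other genes of these hormone pathways were taken from 6 lists. Among 5 tested genes known to respond to estrogen in the hypothalamus, 5 were called higher and 0 lower in hypothalamus, with a median log2 fold change of 1.33 against 0.0 over all genes, of which 6.11% were called higher. The list was drawn up from genes known in the hypothalamus, which bears on their direction there. They included *Cckar*, a cholecystokinin receptor (4.16), *Tac1*, which encodes substance P (2.08), and *Oxtr*, the oxytocin receptor (1.34). In cerebellar cortex 4 of 5 were called lower, as were 9.75% of all genes. In cerebral cortex 2 were called higher and 2 lower, and in the ACB 2 higher and 1 lower. Of all genes, 16.1% and 12.8% were called there in either direction. *Oxtr* (1.955) and *Rprm* (1.924) were higher and *Cckar* (-4.38) was lower in cerebral cortex. *Tac1* (4.19) and *Oxtr* (1.41) were higher in the ACB. In the ARH, where 6.9% of all genes were called in either direction, 2 of 5 were higher, *Greb1*, a classical estrogen target (1.98 ± 0.221), and *Tac1* (1.63). *Greb1* was also higher in the PVH (1.19) and lower in the DMH (-1.03), the LHA (-1.48), the ACB (-2.15) and the ENT (-2.95).

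Among other steroid and related receptors, the list had calls in both directions in hypothalamus, where 8.84% of all genes were called. The orphan receptors *Esrrb* (-2.0) and *Esrrg* (-1.13) were called lower there, and another gene of the list was called higher. None of 11 coregulators and chaperones was called in hypothalamus by edgeR, and 1 was called in cerebellar cortex, the corepressor *Nrip1* (1.05), where 8.84% and 18% of all genes were called.

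Among 11 genes of prolactin receptor signaling, 1 was called in hypothalamus, the growth hormone receptor *Ghr* (1.18), with a list median of 0.412, where 8.84% of all genes were called. In the ARH, with 6.9% of all genes called, 3 were higher and 0 lower, with a median of 0.837 against 0.0221 over all genes. These were *Socs3*, an inhibitor of cytokine receptor signaling (1.95 ± 0.214), *Stat5a*, the transcription factor downstream of *Prlr* (1.47 ± 0.193), and *Ghr* (1.29 ± 0.168). In cerebral cortex, where *Prlr* was low, *Stat5a* was lower (-1.63) and the inhibitor *Socs2* higher (1.17). *Prl*, the ligand, was called higher in the ENT, where 3.80 ± 5.64 TPM (SD, n = 3) shows a difference between libraries as large as the mean. The summed pituitary markers, *Prl* among them, were 39.53, 0.8747 and 9.622 TPM in the 3 ENT libraries, and their part in this was not tested.

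Genes of local steroid metabolism, of which 8 of 9 were tested, included both directions of glucocorticoid conversion. In hypothalamus 1 was called higher and 2 lower, where 8.84% of all genes were called. In cerebellar cortex 3 were called higher and 0 lower, where 18% of all genes were called. *Cyp11a1* was lower in hypothalamus (-1.86) and higher in cerebellar cortex (1.44). *Hsd11b1*, which regenerates active glucocorticoid, was lower in hypothalamus (-1.15 ± 0.0756) and ACB (-2.52 ± 0.171) and higher in cerebellar cortex (1.90 ± 0.0609), where its mean reached 108.8 ± 2.4 TPM (SD, n = 3) in the UVU, the region of highest *Nr3c1*. *H6pd*, which supplies its cofactor, was higher in cerebellar cortex as well (1.17). Within the hypothalamus, *Hsd11b1* (1.03) and *Cyp11a1* (1.60) were higher in the LHA than in the other nuclei. In THy/PHy *Hsd11b1* was lower (-6.98) and *Hsd11b2*, which inactivates glucocorticoid, was higher (5.70), with 9.06 ± 2.87 TPM (n = 3). *Cyp19a1*, the aromatase that makes estrogen, was higher in hypothalamus (1.37), in the PVH (2.50) and in the ARH (1.29) and lower in the DMH (-2.42) and LHA (-2.10). Its libraries were uneven, with 0.4934 to 3.872 TPM in the ARH and 0.06084 to 1.233 in the DMH. Outside the hypothalamus *Cyp19a1* was higher in the ACB (1.445) and in the PB against the NTS and DVC (1.94). It was also higher in embryonic than in adult hindbrain (1.54).

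Of 10 glucocorticoid-responsive genes, 0 were called higher and 1 lower in hypothalamus (*Dusp1*, a phosphatase, -1.01), with a median of -0.269, a share near the 8.84% of all genes called. In cerebellar cortex, where 18% of all genes were called, 1 was higher and 2 lower, among them *Fkbp5*, a cochaperone of the glucocorticoid receptor (-1.65 ± 0.111). In the ACB *Fkbp5* (1.27) and the clock gene *Per1* (1.15) were higher. In THy/PHy 1 was higher and 3 lower, a share near the 38.2% of all genes called there, with the transcription factor *Klf9* lower by the most (-4.41).

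Over the 18 adult regional means, the receptors' patterns were alike to different degrees. Pearson's r of log2(TPM + 1) was 0.817 between *Esr1* and *Pgr*, 0.578 between *Esr1* and *Esr2*, 0.544 between *Esr1* and *Prlr* and 0.176 between *Pgr* and *Prlr*. For *Nr3c1* and *Nr3c2* it was -0.278, and for *Nr3c2* and *Prlr* -0.509. These values are descriptions over regions that share mice, and the ARH weighs on several of them. Among 13922 genes compared the same way, the pattern most like that of *Esr1* was that of *S1pr3*, a sphingosine 1-phosphate receptor (0.925), then *Pdia6* (0.918) and *Cyb5b* (0.914). For *Esr2* they were the hypothalamic peptide genes *Trh* (0.895) and *Oxt* (0.884), then *Defb1* (0.879). For *Pgr* they were *Gm16485* (0.958), *Npy1r*, a neuropeptide Y receptor (0.953), and *Gnaz* (0.943). For *Nr3c1* they were *Zfp526* (0.944), *Tia1* (0.944) and *Pigf* (0.943), and for *Nr3c2* *Naa38* (0.874), *Ephx2* (0.851) and *Sh3pxd2a* (0.821). For *Prlr* they were *Fam189a2* (0.94), *Me2* (0.934) and *Pnp* (0.932), with the choroid-rich CBN libraries among the means.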

How the data were processed

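The authors deposited estimated counts and TPM per transcript and TPM per gene for 70 libraries. Per the labels' processing notes and the study's methods, single reads were base-called with CASAVA 1.8.2 and quantified with kallisto on GRCm38. Here 107987 of 109282 transcripts (98.8%) were matched to genes, and the deposited estimated counts were added up for each gene, then rounded. Unmatched transcripts took 0.418% to 0.767% of counts.

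All 24 groups entered 1 edgeR 4.0.16 quasi-likelihood model (TMM, filterByExpr, 19980 genes, Benjamini-Hochberg adjustment), tested on simulated data. Calls required adjusted p below 0.05 and a log2 fold change beyond 1. SE is the log2 fold change over the root of F. DESeq2 1.42.0, limma 3.58.1, other filters, a replicate block and omitted libraries were alternatives. Ratios used exact permutation tests over all groupings of the regions (Python 3.11.15), with 0.5 added for *Esr1* to *Esr2*. Named genes are the receptors, the 3 genes most correlated with each (highest regional mean of at least 5 TPM), up to 3 called genes with the largest change per list and comparison, and markers. The receptors and lists were chosen with earlier results of these data known. The study lists a batch for each sample of a region without the library names used here, so libraries could not be assigned to batches and no within-batch value or batch term could be had. Promoters come from RefSeq (GRCm38.p6) and transcripts from GENCODE vM21. 1 gene of the list of other receptors is not reported here, so that list is given without counts.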

Additional observations from a re-analysis of the deposited data

Results flagged for a closer look

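In each group of 4 libraries the highest and lowest value of every receptor was compared with the rest by Dixon's criterion, in 30 tests, of which chance alone gives about 1.5 past it. The criterion was exceeded 2 times. *Esr1* in CUL4-5 replicate 1 had 0.2737 TPM, far from the other 3 libraries at 0.09732 to 0.1244 TPM, with 9 estimated counts against 3 to 6. *Prlr* in NTS replicate 1 had 20.34 TPM, far from the other 3 at 2.669 to 3.334 TPM, and that library was among the 7 with *Ttr* above 1000 TPM.

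The embryonic difference itself differed between hypothalamus and hindbrain by the interaction test for *Nr3c1* (log2 -0.8226) and for *Nr3c2* (log2 0.5909), in opposite directions and both below the fold threshold. For *Nr3c2* it was 0.223 (adjusted p = 0.289, edgeR) without THy/PHy replicate 2, with a leave-one-out range up to 0.781.

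The single embryonic forebrain library (F) entered no comparison. It had 0.2293 TPM of *Esr1*, 0.225 of *Esr2*, 0.3948 of *Pgr*, 5.428 of *Nr3c1*, 0.4301 of *Nr3c2* and 0.1014 of *Prlr*. These rest on 8, 9, 27, 326, 20 and 13 estimated counts, each above the limit that a count of 0 allows.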

How the results depend on the processing

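No called fold change of a receptor reversed under the alternatives run. With the adjusted p alone as the threshold, the receptors called numbered 6 in hypothalamus, 4 in cerebral cortex, 6 in cerebellar cortex, 3 in the ARH, 4 in the hindbrain nuclei, 2 in the LHA, 2 in the ENT, 1 in the PB, 2 in the interaction, 1 in THy/PHy against M and H, and 4 in mESCs. At that threshold 10240 of 19980 genes passed in hypothalamus, 11719 in cerebral cortex, 13187 in cerebellar cortex, 10126 in the hindbrain nuclei, 4728 in the ARH, 3902 in the LHA, 2382 in the ENT, 1539 in the PB, 6084 for the interaction, 1704 in THy/PHy against M and H, and 15830 in mESCs. With limma on log2(TPM + 0.5) there were 2 in hypothalamus and 5 in THy/PHy, *Esr2* being lost in both, 2 in cerebellar cortex, 0 in the hindbrain nuclei, 1 in the ACB, 1 in the ARH and 0 in the ENT. With 0.1 added instead there were 2 in cerebellar cortex, 1 in the ACB, 1 in the ARH, 1 in the LHA and 1 in the interaction. With each side pooled as a single group there were 0 in the hindbrain nuclei, 1 in the ACB and 1 in mESCs, where *Esr1* was removed by the filter. The ARH had 1 without a count filter and 1 by DESeq2, and the interaction 1 by DESeq2 and 1 (*Prlr*) without the choroid-rich libraries, an alternative chosen after seeing the data. The cause of these shifts was not tested.

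Leaving out 1 library at a time gave 0 to 2 receptors called in the hindbrain nuclei, 1 to 2 in the ACB, 1 to 2 in the ARH, 0 to 1 in the LHA, 0 to 1 in the ENT, 0 to 1 in the interaction and 1 to 2 in mESCs, and the main count in the other comparisons. For the comparisons with all other adult regions, only libraries of the named side, the choroid-rich ones and VTA replicate 1 were left out, and the rest was not run. The log2 ratio of Esr1 to Esr2 TPM in hypothalamus versus other adult regions became -0.0732 with a pseudocount of 0.1 and -0.415 on estimated counts, and 0.0375 without the ARH, also chosen after seeing the data.

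The fit with a replicate block changed no count of receptors called (3 in hypothalamus, 6 in THy/PHy). The numbers were not taken as pairs: deviations of same-numbered libraries of different regions had a median correlation of 0.00951 over 436 pairs, against -0.00415 over 1095 pairs with different numbers, and exceeded 0.1 in 26 of the former and 26 of the latter, a higher share of the former. Depth limits *Esr2* throughout and *Esr1* in cerebellar cortex, embryos and mESCs, where single libraries held few counts.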
